A study of Mus musculus with 19 samples.

Results

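Cytosolic ribosomal protein genes were followed across the layers of mouse primary somatosensory cortex (S1). Members were the Ensembl genes whose symbol was Rpl or Rps followed by a number, with an optional a, l, x or lx, together with Rplp0, Rplp1, Rplp2 and Rpsa. Genes with a -ps symbol (pseudogenes) and the Rps6k kinases were left out. This gave 77 members of 24130 listed genes, of which 47 encode proteins of the large subunit and 30 proteins of the small subunit. Of 83 symbols of this form in the annotation, Rpl24, Rpl32l, Rpl41, Rpl6l, Rps13 and Rps27 were not analysed here.

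Polyadenylated RNA came from laminar dissections of male C57BL/6 mice (C57BL/6J in the methods) aged 56 days, for which no treatment is named. Sample A held mostly the superficial layers 1 to 3 and sample B layer 4, while C and D came from the upper and the lower portion of layer 5, and E and F were mostly layer 6 and layer 6b. Samples A, C, D, E and F were each 1 library pooled from 8 mice, and B was sequenced as B1 and B2, each from the 4 littermates of 1 litter of the same mice. The other 12 samples of the series, from dorsal and lateral cortex, were not analysed here. Levels are FPKM, the number of sequenced fragments relative to transcript length and to all mapped fragments, with the 95% interval that cufflinks gave for each value. Genes whose 95% interval never spanned more than 50% of their mean level are called classifiable, and 11409 genes met this criterion.

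Ribosomal proteins and ribosomal RNA build the large subunit, which joins amino acids, and the small subunit, which reads the messenger RNA. The proteins are needed in near equal amounts, and free ones are degraded. Their messenger RNAs are short and abundant, and most begin with a C followed by a run of pyrimidines, the terminal oligopyrimidine tract (TOP), through which mTOR signalling controls their translation. Each gene has left many processed pseudogenes in the mammalian genome, so that a short read from a ribosomal protein transcript often has several perfect matches.

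Depth in mapped fragments, estimated from coverage over FPKM with all reads taken as 50 nt, ranged from 31.5 M fragments in A to 75.4 M fragments in B2. This estimate is not the number of sequenced fragments that the paper gives. Genes of the mitochondrial genome took 5.03% of all FPKM in F and 21.8% in A. The mean inner distance between paired reads, per the labels, was shortest in A (164 nt) and longest in B1 (239 nt), and lay between 172 and 208 nt in the other libraries. Layer markers followed the labels, with Rorb highest in B2 (22.1 FPKM), Fezf2 in C (26.0), Tbr1 in E (73.5) and Ccn2 in F (167.3), whereas Cux2 reached 37.9 in A and 43.5 in B1. Markers of other cells stood apart in A: 4 haemoglobin and red cell genes summed to 777.2 FPKM there against 69.7 to 103.9 elsewhere, and 5 genes of the meninges to 30.2 against 4.10 to 6.83, led by Igf2. Lum was the only meningeal marker not highest in A. Of 5 endothelial markers the sum was highest in A (68.1 against 34.9 to 46.9), but only 1 of the genes was. The sum of 6 microglial markers was high in both A and F (104.9 and 106.6 against 59.5 to 79.4). Astrocyte markers were highest in F (315.5 against 140.4 to 168.2 for 5 genes), as were oligodendrocyte markers, which summed to 286.7 in A and 11490 in F for 6 genes. None of these markers was at 0 in any library. The sum of 5 neuronal markers was lowest in A (1359 against 2197 to 2882), although Rbfox3 was highest there. In such pieces of tissue, fewer cells of a type and less RNA per cell cannot be told apart.

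The start sites of the members are shown first because the TOP tract is the sequence by which this gene family is known. RefSeq promoter entries (build GRCm38.p6) existed for 56 members with 68 starts. A C followed by at least 4 pyrimidines lay exactly at the annotated start in 12 of the 68 starts (17.6%), against 2.51% of 32851 starts of all genes. The following windows hold 20 bases before the start and 10 from it, 5′ to 3′, with the pyrimidine run in capitals. The first 6 carry a tract and the last 3, from paralogues, do not, as was so for 44 of the 56 members with an entry.
Rpl15, chr14:18270977-18271006, minus strand: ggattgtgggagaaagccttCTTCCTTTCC
Rpl35, chr2:39005122-39005151, minus strand: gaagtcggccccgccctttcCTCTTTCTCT
Rpl35a, chr16:33056462-33056491, plus strand: gcgcggcggggcttgccttcCTCTTTCCgc
Rplp2, chr7:141447631-141447660, plus strand: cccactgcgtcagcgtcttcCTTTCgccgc
Rps10, chr17:27635235-27635264, minus strand: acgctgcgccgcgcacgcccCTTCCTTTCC
Rps6, chr4:86857358-86857387, minus strand: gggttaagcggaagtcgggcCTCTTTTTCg
Rpl10l, chr12:66284392-66284421, minus strand: agaaatttggcctccattttgcggctggcg
Rpl39l, chr16:10170208-10170237, plus strand: cctagctcccaggcctttccggatttccgg
Rps27l, chr9:66946066-66946095, plus strand: cctctccactcctccccgccgcctctatcc

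The runs of Rpl15 and Rpl35 go on past the window. Within 30 bases on either side of the start, CTTTC or CTTCC occurred on the gene's strand in 54.4% of the members' starts and in 19.1% of all starts. CTTCCG, the core of sites for ETS factors, occurred on either strand of the 300-base entries in 58.8% and 16.9%, and it contains CTTCC. The 12 members with a tract at the annotated start were all highest in A, with a median level there 3.35 times the mean of C to F. For the 44 other members with an entry, the median was 3.84 times, and 38 were highest in A.

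The ribosomal protein genes had their highest levels in the superficial sample A and their lowest in B1. Summed over the 77 members, FPKM was 4568 in A, 933.8 and 1570 in B1 and B2, and 1356, 1303, 1378 and 1605 from C through F. As a share of all FPKM outside the mitochondrial genome this was 1.66% in A, 0.3605% and 0.620% in the litters of B, and then 0.485%, 0.459%, 0.473% and 0.518% in successive samples C to F. The share in A was 2.68 times that in B2 and 4.602 times that in B1, while the libraries C to F stayed within 1.13 times of each other. The litters of segment B differed from each other by 1.72 times, so that the position of B relative to C to F depended on the litter, and A lay above both. Single pools gave A and C to F, so their spread between mice was not measured.

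**Figure D1:**
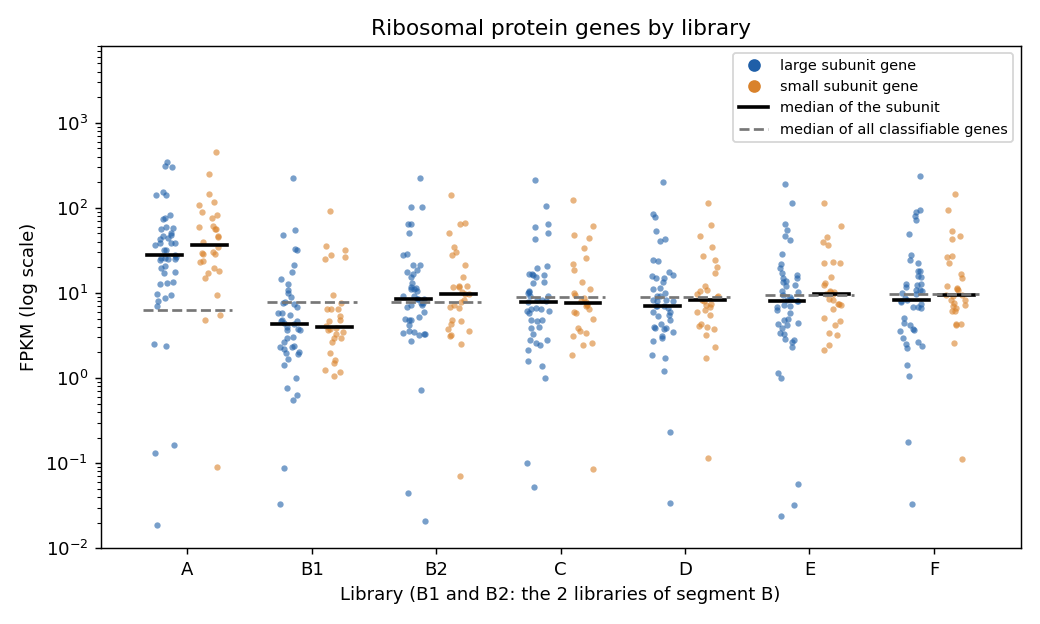
FPKM (log scale) of each ribosomal protein gene in each of the 7 libraries, with large subunit genes in blue, small subunit genes in orange, black bars at each subunit's median and grey dashes at the median of all classifiable genes; 8 of 539 values are 0 and are not drawn. The members' points sit highest in A, where the medians are 28.0 for the large and 36.8 for the small subunit, and lowest in B1, where they are 4.27 and 4.01.

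The shift was shared by nearly the whole family. The median member had 32.0 FPKM in A, 4.14 in B1, 8.55 in B2 and 7.81 to 9.30 in C to F. Over the 11409 classifiable genes the median ran the other way, from 6.23 in A to 9.81 in F. A was the highest library for 68 of the 77 members, against 18.5% of those genes, and B1 was the lowest for 66, against 18.4%. The level in A was above the mean of C to F in 74 members, with a median ratio of 3.54 and a range of 0.914 to 10.3. Of these ratios, 64 were above 2 and 19 above 5, whereas the median ratio over the 11409 genes was 0.694. Of the values given above, the blood, meningeal and endothelial sums and the mitochondrial share (21.8%, with 18.2% in B2) were highest in A. Depth, the inner distance (164 nt, with 172 nt in E) and the neuronal, astrocyte and oligodendrocyte sums were lowest there. Microglial markers were high in A and also in F. The part of all of these in the shift was not tested.

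Rpl8 (ENSMUSG00000003970, mm9 chr15:76734515-76736742), whose protein lies near the catalytic centre of the large subunit, was the most abundant member at a mean of 234.5 FPKM. Its levels were 350.5 in A, 226.8 and 222.0 in B1 and B2, and 213.0, 199.0, 192.3 and 238.0 from C through F. Both litters of B gave nearly the same value, and A was 1.66 times the mean of C to F. Steeper differences were found in other abundant members. Rpl13a (chr7:52380928-52384118), a large subunit protein that can also leave the ribosome to silence transcripts, had 298.6 in A, 54.5 and 101.2 in B1 and B2, and 65.1, 85.5, 64.4 and 89.8 from C through F. Rps15 (chr10:79755198-79756859), a protein of the small subunit head, had 449.9 in A, 25.3 and 65.8 in the litters of B, and then 47.7, 46.5, 45.2 and 53.6 in successive samples C to F. Rps15 in A was thus 9.32 times the mean of C to F. Rpl4 (chr9:64021181-64026323), which lines the exit tunnel for the growing protein, had 142.8 in A, 33.2 and 101.4 in B1 and B2, and 106.1, 77.6, 113.8 and 95.5 from C through F. Its lowest value in B1 stood apart more than its highest in A.

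Share of expression, a gene's FPKM in a segment over its sum across the 6 segments with B as the mean of both litters, put the median member at 42.8% in A. The medians in the other segments were 9.30% in B, 10.6% and 11% in C and D, 12.1% in E and 13.3% in F. Over the 11409 genes the corresponding medians were 12.4, 15.1, 16.9, 17.2, 17.8 and 18.2%. Members thus held a larger share in A and a smaller one in each of the other segments. When A was left out and shares were taken over B to F alone, the members' medians were 16.9% in B, 19.2% and 19.7% in C and D, 20.5% in E and 22.7% in F. Shares without A were not computed for all genes, whose medians with A included also rose, from 15.1% in B to 18.2% in F. Library scaling changed the size but not the place of the maximum: with libraries rescaled by the median of ratios the share in A became 51.2%, where the log2 size factors ran from -0.385 in A to 0.20 in F.

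**Figure D2:**
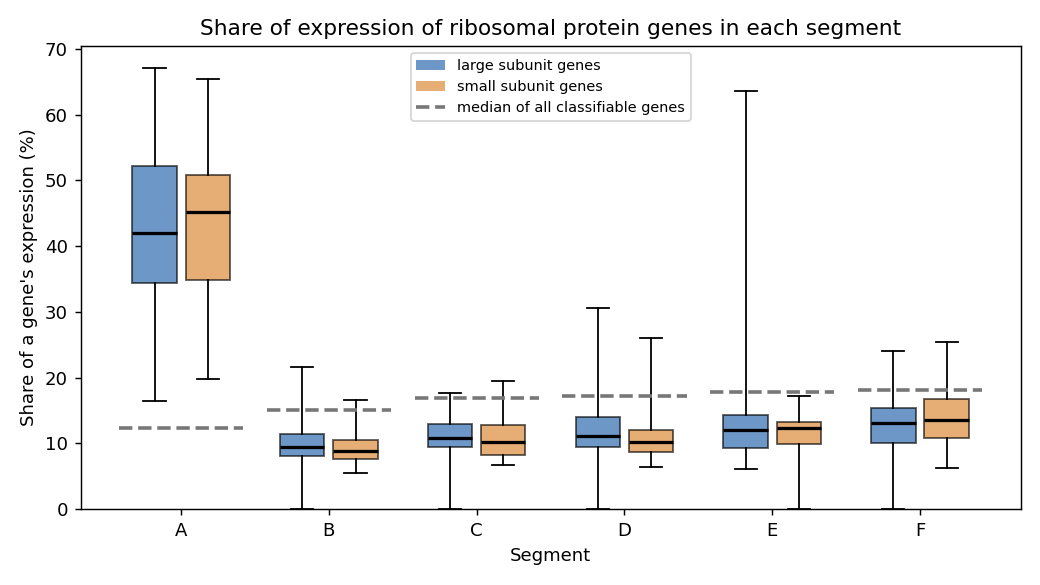
Share of each gene's expression (%) in segments A to F for large subunit genes (blue) and small subunit genes (orange); boxes span the quartiles, black lines are medians, whiskers reach the lowest and highest member and grey dashes are the medians of all classifiable genes. Both boxes in A lie above the grey mark at 12.4%, and from B to F both medians lie under it.

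Large and small subunit genes both had their highest sum in A and their lowest in B1, but the ratio of sums differed between libraries. The summed FPKM of large over small subunit genes was 1.32 in A, 1.84 and 1.63 in the litters of B, and then 1.66, 1.68, 1.61 and 1.52 in successive samples C to F. The ratio in A was 0.757 times the mean of B1 and B2, with values of 0.716 and 0.804 for each litter. This difference rested on the most abundant members, because without the 5 members of highest mean FPKM it was 1.02 times. Gene by gene, the median share in A was 42.0% for the large and 45.3% for the small subunit, and the quartiles of both overlapped (34.4 to 52.1% and 34.9 to 50.9%). A was above the mean of C to F in 44 of 47 large and 30 of 30 small subunit genes, by a median of 3.41 and 3.85 times. From C to F, small subunit genes had a median of 1.27 times in F over C, and large subunit genes 1.13 times, beside 1.07 times over the 11409 genes.

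Of the 77 members 32 were classifiable, 19 of the large and 13 of the small subunit. The criterion on intervals favours abundant genes and genes with few competing copies, and it can admit a gene through a high level in A, so counts over these 32 describe them and not the family. Fits of a linear and a quadratic term of segment position, 1 in A to 6 in F, were made with limma on log2(FPKM + 0.1) over all 11409 classifiable genes. Under Benjamini-Hochberg adjustment 7 of the 32 members (21.9%) passed, against 43.5% of all genes tested. These were Rpsa (adjusted p = 0.00871), Rpl14 (0.0145), Rpl29 (0.0145), Rpl8 (0.0395), Rpl18 (0.0405), Rpl12 (0.0468) and Rps6 (0.0477). The design leaves 4 residual degrees of freedom, and the error holds the difference between B1 and B2 and the departure of the segments from the fitted curve. The count, and the share of all genes that passed, changed with single libraries. The count was 2 without A (10.1% of all genes), 25 without B1 (57.9%) and 3 without B2 (36.9%). It was 3 without C (28.9%), 5 without D (30.7%), 4 without E (29.2%) and 3 without F (32.4%). With each segment as its own level, where only B1 and B2 give the error, limma called 0 members and 0 of all genes, and 7 members and 2111 genes had an unadjusted p of at most 0.05.

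Of the members that passed, Rpsa had the smallest adjusted p. Rpsa (ENSMUSG00000032518, mm9 chr9:120036907-120040677), a small subunit protein also described as the laminin receptor, had 19.8 FPKM in A, 2.68 and 3.15 in B1 and B2, and 2.45, 2.32, 2.41 and 6.09 from C through F. It was thus low and even from B to E, and higher at both ends. Rpl14, a large subunit protein, had 153.0 in A, 47.4 in B1, 64.6 in B2 and 40.7 to 50.8 in C to F. Rpl29, known also as a heparin-binding protein, had 38.6 in A, 17.8 in B1, 18.5 in B2 and 11.4 to 16.4 in C to F, and both litters of B were above D. Rps6, the substrate of the S6 kinases, had 18.2 in A, 5.40 and 6.72 in the litters of B, and then 5.85, 7.15, 7.16 and 10.7 in successive samples C to F. Rpl18 had 38.2 in A, 6.93 and 8.43 in the litters of B, 8.02 to 8.23 in C to E and 11.8 in F. Without A, 6 of the 7 lost their call and Rpl12 kept it (adjusted p = 0.0494), while Rps4l passed as the other of the 2 (0.0394). The fitted straight slopes of Rpsa, Rps6 and Rpl18 then turned from negative to positive. Their adjusted p in the limma trend test without A was 0.0621, 0.0948 and 0.171. The slopes of Rpl14, Rpl29 and Rpl8 stayed negative, and their adjusted p in the same trend test was 0.330, 0.242 and 0.411. Rpl12, which binds at the base of the stalk where translation factors land, had 19.9 in A and 3.02 to 3.95 in B1 to E. Rpl12 has no line in F and was entered there as 0, and its slope changed from -1.01 to -0.42 log2 units per segment when F was left out.

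Tests of a straight slope from A to F with limma called 1 member, Rpl12 (adjusted p = 0.0441), as falling, where 2.63% of all genes tested were called falling. No member was called rising (0 of 32), against 16.1% of all genes. An unadjusted p of at most 0.05 in this limma slope test was found for 3 of the 32 members, beside 4591 of 11409 genes. The median slope of the 32 was -0.11 log2 units per segment beside 0.09 over all genes, and 26 of 32 slopes were negative. Slopes ran down to -0.31 for Rpl37 (SE 0.23), -0.29 for Rps29 (SE 0.23) and -0.27 for Rps26 (SE 0.18), each short of the threshold at adjusted p of 0.345, 0.36 and 0.273. At the other end were Rpl22 at 0.12 (SE 0.11), Rps4l at 0.11 (SE 0.08) and Rps3 at 0.09 (SE 0.09), with adjusted p of 0.430, 0.324 and 0.492. The median slope of the members was 0.13 without A. The large difference lay between A and the other samples and not along C to F.

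The 95% intervals gave a comparison of single libraries that reflects sampling and not mice. Classifiable members with an interval in A wholly above that in B1 numbered 30 of 32 (26.9% of all genes tested), and 28 lay above B2 (27.6%), 30 above C (25.3%), 29 above D (25.3%), 28 above E (24.8%) and 27 above F (24.4%). In the opposite direction Rps3 alone was lower in A than in F, where 60.8% of all genes were. Over all 77 members, 66 to 71 lay above in A in these pairs. Between C and D, 5 members were higher in C (15.5%) and 5 higher in D (18.8%), shares close to those of all genes. F was above C in 16 of the 32 (38.3%) and below it in 3 (24.1%), and above E in 14 (28.7%) and below it in 5 (25%). Over all 77 members, F was above C in 22 and below it in 3, and above E in 19 and below it in 8. With F above, the shares were larger in the 32 than in all genes, and smaller in the 77. All genes here are classifiable, whereas most of the 77 had intervals too wide for that criterion. The higher sums of astrocyte, oligodendrocyte and microglial markers in F are given above, and their part in these counts was not tested.

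A few members were not highest in A. Rpl22, an RNA-binding protein of the large subunit, had 56.8 in A, 21.3 and 50.2 in B1 and B2, and 42.8, 42.6, 46.6 and 71.2 from C through F. Rps3 (chr7:106626406-106632248), which sits at the messenger RNA entry and also has roles in DNA repair, had 81.4 in A, 35.4 and 64.5 in the litters of B, and then 61.1, 62.9, 61.4 and 94.0 in successive samples C to F. Both had their maximum in F and a low value in B1. Rpl7a (chr2:26766337-26768838), a large subunit protein, was the flattest of those named here, with 13.5 in A, 12.7 and 11.6 in B1 and B2, and 13.3, 13.4, 13.7 and 15.3 from C through F, but 122 other genes share a 50-base stretch with its transcript. Rpl21 ranged from 7.92 in B1 to 12.6 in F and was 9.38 in A, and 82 other genes share a stretch with it. Rps4l had its maximum of 6.12 in F and 5.46 in A. The remaining 4 were Rpl17, highest in B2 (2.71), and Rpl3l, Rpl10l and Rps12, each at a mean under 1 FPKM. Rpl21, Rpl22, Rpl7a, Rps3 and Rps4l had FPKM-weighted transcript lengths of 891.5 to 1908 nt, above the median of all members (643.1 nt). Of the remaining 4, Rpl3l was also above it (1035 nt), and Rpl17, Rpl10l and Rps12 were below it (618, 603 and 494 nt).

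**Figure D3:**
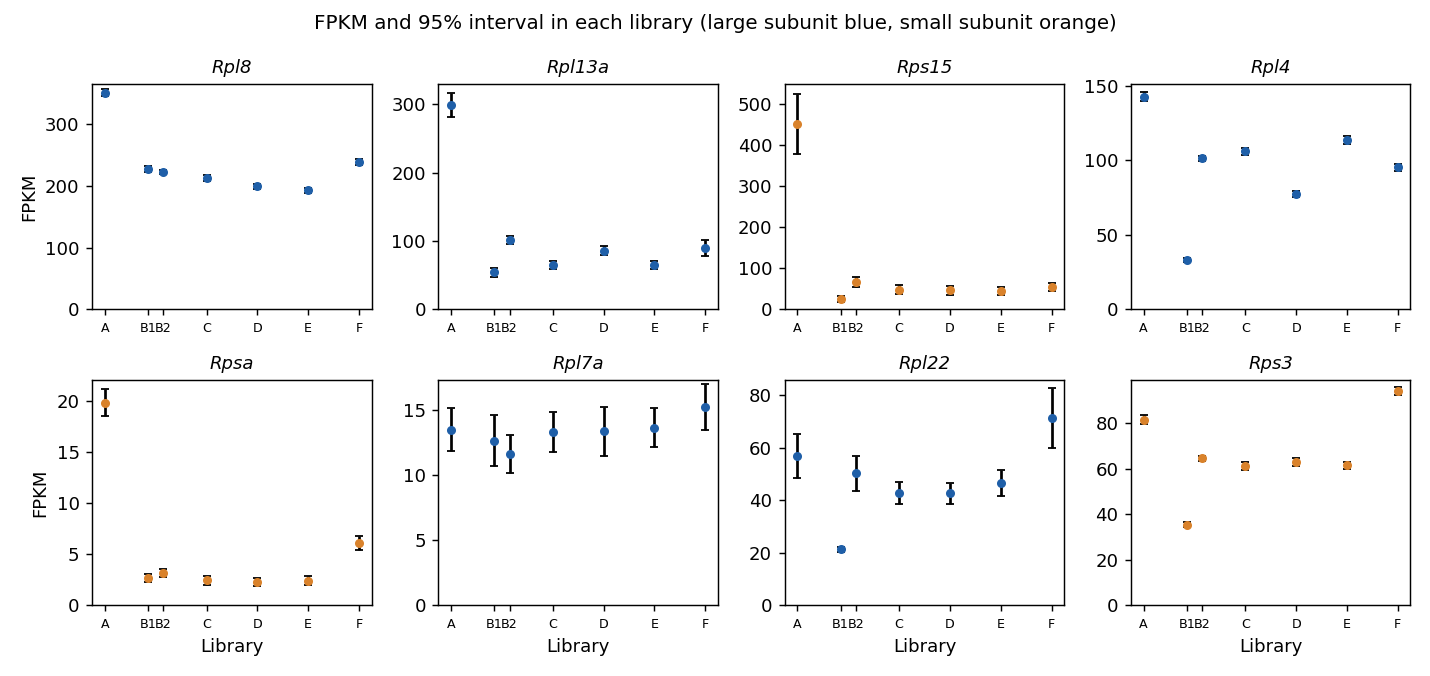
FPKM with its 95% interval in each of the 7 libraries for 4 abundant members (Rpl8, Rpl13a, Rps15 and Rpl4), Rpsa, and 3 members that did not peak in A (Rpl7a, Rpl22 and Rps3), each axis starting at 0. Rps15 runs from 449.9 in A to 25.3 in B1, while Rps3 reaches its maximum of 94.0 in F.

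The litters of segment B gave the measure of replicate error, and the members differed between them. B2 was above B1 in 71 of 77 members, with a median ratio of 2.17, whereas over the 11409 genes the median was 0.993 and 49.0% were higher in B2. Intervals were apart with B2 above B1 in 25 of 32 classifiable members (32.1% of all genes) and with B1 above B2 in 0 (34.3%); over all 77 members the counts were 59 and 0. Ratios were largest for Rps21 at 6.64 times (7.55 and 50.2 FPKM), Rpl31 at 6.32 times (0.548 and 3.46) and Rpl23a at 4.36 times (0.759 and 3.31). Rps21 belongs to the small subunit, and Rpl31 and Rpl23a sit at the rim of the exit tunnel. Rps2 went the other way, with 32.1 in B1 and 21.6 in B2. B2 also had more of its FPKM in mitochondrial transcripts than B1 (18.2 and 7.76%), a shorter inner distance (193 and 239 nt) and a greater depth (75.4 M against 49.2 M fragments). The part of these in the difference was not tested.

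Transcript length weighted by FPKM went with both differences, and the longest annotated length did so less. The length of a member is here the mean of its annotated transcripts weighted by their FPKM, which ran from 309 nt in Rps28 to 2877 nt in Rps15a. The weights come from the same libraries as the ratios, so this length is not independent of them. The 39 members of 643.1 nt or less had a median share of 48.5% in A, a median of 4.58 times in A over C to F and 2.59 times in B2 over B1. The 38 longer members had 38.0%, 2.96 times and 1.54 times. With the longest annotated transcript in place of the weighted length, the shares in A were 43.9 and 42.4%. The ratios were then 3.87 and 3.44 times in A over C to F, and 2.37 and 1.87 times in B2 over B1. Across the 74 members listed in all 7 libraries, Spearman's rho of weighted length was -0.62 with log2 of A over C to F and -0.50 with log2 of B2 over B1. For the longest annotated transcript, rho was -0.25 and -0.19. These values are a description across genes that share the same libraries.

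Other genes of the same length had lower ratios of A over C to F, and these too were lower in longer classes. Among genes under 500 nt, the median of A over C to F was 5.66 for 19 members and 1.40 for 346 other classifiable genes. From 500 to 750 nt it was 3.88 for 32 members and 1.23 for 566 others, from 750 to 1000 nt 2.86 for 14 and 1.03 for 595, and from 1000 to 2000 nt 1.45 for 11 and 0.860 for 2788. The members' median was above that of the other genes in each of these classes. Over 2000 nt it was 2.44 for 1 member and 0.582 for 6839 others. That member, Rps15a, had 24.1 FPKM in A, 6.51 and 7.77 in the litters of B, and then 9.99, 10.8, 10.5 and 8.20 in successive samples C to F. For B2 over B1 the medians under 500 nt were 2.80 for members and 1.48 for the others, and from 500 to 750 nt 2.19 and 1.20. From 750 to 1000 nt they were 1.28 and 1.16, and from 1000 to 2000 nt 1.82 and 1.05. The members' medians of B2 over B1 thus did not fall steadily with length. The fragment sizes given above also ordered the libraries in part like the members' sums, with the shortest in A and the longest in B1. Replacing FPKM by coverage per full transcript length, tried after seeing the data, left the median share in A at 45.1% and 68 members higher in B2 than in B1.

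**Figure D4:**
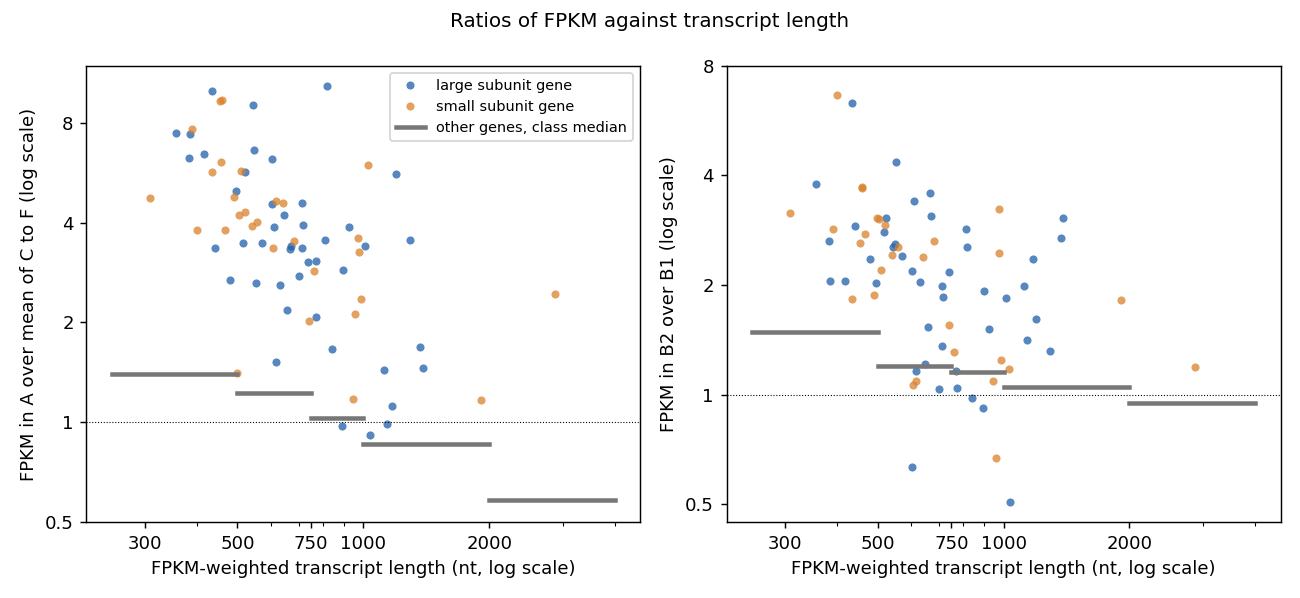
FPKM in A over the mean of C to F (left) and in B2 over B1 (right), both on log scales, against FPKM-weighted transcript length (nt, log scale) for the 74 members listed in all libraries, with grey bars at the medians of other classifiable genes in 5 length classes. Short members lie highest in both panels, and in each class up to 2000 nt the median of the members is above the grey bar.

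The shortest and longest annotated members illustrate the range. Rpl36 (383 nt) had 38.3 FPKM in A, 1.98 in B1, 5.25 in B2 and 4.84 to 8.02 in C to F. Rpl38 (457 nt) had 48.4 in A, 4.48 in B1, 9.20 in B2 and 5.02 to 8.17 in C to F. Rps29 (461 nt), which holds a zinc ion in the small subunit head, had 60.9 in A, 3.63 in B1, 10.3 in B2 and 6.38 to 10.3 in C to F. The 3 genes were between 6.25 and 7.67 times higher in A than in the mean of C to F. Rps20 and Rps24 have long annotated transcripts (3706 and 4059 nt) but weighted lengths of 973.7 and 457.8 nt, and their ratios were 3.60 and 6.08.

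Functional groups within the ribosome all had their maximum in A for most members. The stalk, Rplp0, Rplp1, Rplp2 and Rpl12, recruits elongation factors, and its 4 genes were all highest in A with a median of 4.19 times over C to F. Rplp1 had 309.3 FPKM in A, 31.6 in B1, 64.0 in B2 and 53.9 to 80.4 in C to F. Rpl5 and Rpl11, which can bind Mdm2 and so stabilise p53 when ribosome assembly is disturbed, had 17.3 and 25.2 in A. These levels were 1.69 and 6.60 times their means over C to F, and Rpl5 was the member with the fewest unique stretches (6.16%). Of 9 genes of the exit tunnel and its rim 7 were highest in A, and of 14 of the small subunit head 12 were, with medians of 3.04 and 3.95 times. All 9 genes of the list mutated in Diamond-Blackfan anaemia, an inherited failure of red cell formation, were highest in A, at a median of 4.78 times and a median share of 50.0%. Rps26 of this list had 55.7 in A, 6.49 in B1, 11.9 in B2 and 9.35 to 10.4 in C to F.

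Paralogues allow the ubiquitous and the restricted copy to be set side by side. Rpl3 had 20.6 in A and 3.70 to 6.73 elsewhere, whereas its muscle paralogue Rpl3l stayed between 0.0449 and 0.235. Rpl10 had 8.84 in A and 2.04 to 4.34 elsewhere, and Rpl10l, known from testis, was listed in only 2 libraries, at 0.0185 in A and 0.0323 in E. Rpl39 had 13.02 in A and 1.43 to 4.87 elsewhere, and Rpl39l 0.163 in A and 0.0211 to 0.0523 elsewhere. The tissue-restricted copies were thus listed near 0 in these samples. Other pairs were expressed together, except that Rps27, the partner of Rps27l, was not analysed here. Rps4x, on the X chromosome, had 29.2 in A and 2.99 to 11.6 elsewhere, and Rps4l had 5.46 in A and 2.92 to 6.12 elsewhere. Rps27l, whose gene responds to p53, had 4.85 in A and 1.23 to 4.24 elsewhere. Rpl36a had 25.9 in A and 5.52 to 12.97 elsewhere, and Rpl36al, which the symbol rule leaves out, 33.7 and 3.15 to 10.7. Rpl22 was highest in F (71.2, with 56.8 in A), and its paralogue Rpl22l1 had 19.8 in A and 1.04 to 6.28 elsewhere. Rpl7 had 25.3 in A and 2.93 to 8.496 elsewhere, beside 7.40 and 3.66 to 6.61 for Rpl7l1.

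Copies elsewhere in the genome limit how far the level of a single member can be read. Windows of 50 bases, the read length, were compared with the transcripts of all other GENCODE M21 genes. The median member had 46.6% of its windows in no other gene, from 6.16% in Rpl5 to 100% in members such as Rpl3l and Rpl39l, and it shared a window with a median of 10 other genes. The 12 members with at least 75% unique windows had a median of 1.56 times in A over C to F, against 3.41 to 4.05 times in the other classes, and they include the low paralogues. Levels of the 12 ran from 0.00726 (Rpl10l) to 234.5 FPKM (Rpl8). Pseudogenes with a member's symbol followed by -ps summed to 26.8% of the members' FPKM in B1, 40.6% in A and 43.3% in F. With these added, the share of FPKM in A was 3.61 times the mean of B1 and B2, against 3.39 times without them. Rps12, a small subunit protein that every cell uses, was listed at 0.0672 FPKM on average with 14.3% unique windows. A low listed value of a member is therefore not read as its absence.

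Isoforms could be compared in 5 members with at least 2 classifiable transcripts. In 4 of them, Rpl5, Rpl15, Rpl18 and Rpl19, a pair of transcripts had intervals apart in opposite directions in at least 1 pair of libraries, beside 81.9% of the 2017 genes with such transcripts. Rpl19 had its 737-nt transcript at 6.96 FPKM in C and 8.13 in D and its 751-nt transcript at 0.853 and 0, and the second was 4.81 in A. Rpl18 had its 641-nt transcript in all libraries, from 6.53 to 38.2 FPKM, and its 763-nt transcript only in E (1.71) and F (2.88). The calls for Rpl15 involved transcripts under 0.6 FPKM. In Rpl21 the 1067-nt transcript was lowest in A (3.91) and highest in B2 (9.88), while the 1856-nt transcript stayed between 1.13 and 1.42.

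Median ratios of A over C to F were smaller in other lists of translation genes. The 6 ribosomal genes that the symbol rule leaves out, among them Fau and Rack1, were all highest in A and all lowest in B1, with a median of 2.52 times in A over C to F and 2.58 times in B2 over B1. Fau, which encodes a small subunit protein fused to a ubiquitin-like one, had 117.5 in A, 8.34 in B1, 16.2 in B2 and 10.7 to 15.5 in C to F. Rack1, a signalling scaffold on the small subunit, had 97.5 in A and 67.0 to 90.8 elsewhere. Adjusted trend p of the 5 classifiable genes of this list lay between 0.129 and 0.719. Of 11 other genes with a TOP messenger RNA, 8 were highest in A, with a median of 1.90 times. Tpt1, an abundant TOP gene, had 47.5 in A, 12.2 in B1, 19.3 in B2 and 17.1 to 22.9 in C to F. Eif4b, an initiation factor of the same list, went the other way, with 16.2 in A, 29.4 in B1, 20.4 in B2 and 30.3 to 42.0 in C to F, and limma called it as rising (slope 0.25, adjusted p = 0.0273).

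Elongation factors had a median of 1.34 times in A over C to F and passed the trend test in 2 of 5 classifiable genes (40%, beside 43.5% of all genes), Eef1a1 and Eef1e1. Eef1a1 had 89.9 in A, 31.4 and 43.4 in B1 and B2, and 49.2, 48.8, 59.9 and 103.6 from C through F. Eef1a2, the form of neurons and muscle, had 738.7 in A, 769.8 and 536.0 in the litters of B, and then 593.1, 590.3, 557.4 and 464.8 in successive samples C to F. Its highest value was thus in B1, followed by A. Initiation factors had a median of 1.11 times (22 of 46 highest in A), genes of ribosome biogenesis 0.992 times (7 of 22), and proteins of the mitochondrial ribosome 1.02 times (33 of 77). In the trend test 10 of 38, 5 of 21 and 12 of 66 classifiable genes of these lists passed (26.3, 23.8 and 18.2%, beside the same 43.5%). Nuclear genes of the respiratory chain, which are also short, had a median of 1.65 times in A over C to F and 1.67 times in B2 over B1, and 55 of 87 were highest in A. The cytosolic ribosomal protein genes had the largest median ratio of A over C to F among these lists, and no test was made of the difference between lists. The lists also differ in length. The median weighted length was 643.1 nt in the members, 593.2 in the respiratory chain and 696.3 in ribosomal genes outside the rule. It was 970.5 in the mitochondrial ribosome, 1339 in elongation factors, 1406 in other TOP genes, 1873 in initiation factors and 2493 in ribosome biogenesis. The part of length in this order was not tested.

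**Figure D5:**
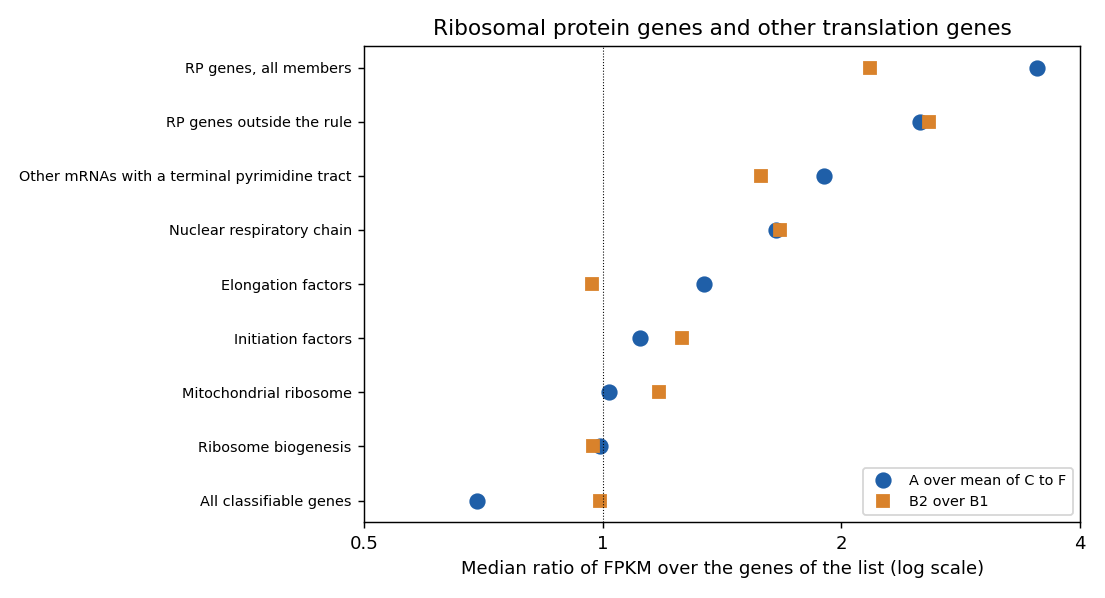
Median ratio of FPKM over the genes of each list, on a log scale, for A over the mean of C to F (blue circles) and B2 over B1 (orange squares). The ribosomal protein genes lie farthest to the right for A at 3.54, and all classifiable genes together lie at 0.694 and 0.993.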

How the data were processed

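The authors mapped paired reads of 50 nt (partly 75 nt in F) to mm9 with TopHat 1.0.13, and cufflinks 0.8.3 estimated Ensembl release 57 genes and transcripts, per the labels and methods. The deposited FPKM values, with lower and upper 95% bounds, are linear and normalised for length and depth. The deposited coverage signal of a transcript is its fold read coverage, not normalised for depth. How reads with several matches were shared out is not given in the sources used here. De novo models were not used.

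FPKM of genes listed at more than 1 place were summed, and a gene with no line in a library was set to 0. Symbols, lengths and GC content came from GENCODE M21 by identifier, while coordinates of genes are those of the files (mm9). Fits used log2(FPKM + 0.1) in limma 3.58.1 (R 4.3.3) without covariates, with a threshold of 0.05 after Benjamini-Hochberg adjustment over all classifiable genes. Data were simulated with 11209 unchanged genes and with genes given a straight slope of 0.5 or 1 log2 units per segment. Of the genes with a slope, the trend fit recovered 62% to 88% and the slope fit 76% to 96%. The median slope of the classifiable members was -0.11 log2 units per segment, and recovery at slopes of this size was not tested. Recovery of a level raised in A alone was not tested either. The simulated noise was drawn from the differences between B1 and B2 over all classifiable genes, without departures of the segments from a line. Recovery with the members' own differences between B1 and B2 was not tested. Intervals cover sampling only, and depth was estimated from coverage over FPKM of transcripts of at least 2000 nt. Groups came from the labels. P-values of the trend and slope fits rest on the difference between B1 and B2 and on the departure of the segments from the fitted curve. They do not measure the spread between mice in each segment, since only B has a replicate and all pools share the same mice. The members, lists and tests were chosen with earlier results of these data known. Genes named are the most abundant members, those with extreme slopes, lengths or differences between B1 and B2, paralogue pairs, members outside the criterion on intervals and members with opposite isoforms, with those that passed the trend test and those not highest in A named after their values were seen. One member that this rule names is not reported on its own. The samples of dorsal and lateral cortex were not analysed here.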

Additional observations from a re-analysis of the deposited data

How the results depend on the processing

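The number of members passing the trend test was 7 of 32, where 43.5% of all genes passed. It was 3 of 9 with an interval limit of 25% (44.1%), 4 of 77 with no filter on intervals (25.4%) and 3 after adjustment for GC content (30.9%). It was 15 with B1 and B2 averaged (53%) and 0, as for all genes, with each segment as its own level. When each library was left out it ran from 2 (10.1%) to 25 (57.9%). The number passing the slope test was 1 (18.7% of all genes) and became 2 after length adjustment (12.1%). It became 0 with a pseudocount of 0.01, with the limit of 25%, with no filter, after GC adjustment and with B1 and B2 averaged. It was also 0 with libraries rescaled by the median of ratios or by their summed FPKM without mitochondrial genes. Shares of all genes in these settings with 0 members ran from 7.34% to 18%. When each library was left out the number ran from 0 to 1, and the share of all genes from 4.74% to 19.7%. The large over small subunit ratio in A relative to B, 0.757, was 0.826 with ribosomal genes outside the symbol rule, 0.914 with classifiable members and 1.02 without the 5 most abundant. The difference in median slope between short and long members, -0.055, was -0.073 by weighted length, -0.0058 after GC adjustment, -0.034 with FPKM per full length and 0.0025 after length adjustment, and ran from -0.059 to -0.018 when each library was left out. The median share in A, 42.8%, was 51.2% after rescaling, 51.2% after GC adjustment, 40.3% after length adjustment and, as an alternative chosen after seeing the data, 45.1% with FPKM per full length. With intervals widened 2 times, B2 lay above B1 in 39 in place of 59 of all 77 members (20.7% in place of 32.1% of all genes). F lay above C in 12 in place of 22 of the 77 (24.8% in place of 38.3%). These percentages are over classifiable genes, and most of the 77 were not classifiable. When each library was left out, the slope ran from -0.36 to 0.12 for Rpl18, from -0.19 to 0.18 for Rps6 and from -0.55 to 0.16 for Rpsa, with the positive value without A in each. Except where the construction of an alternative shows it (fewer genes or libraries), the cause was not tested. No paired analysis was possible because only segment B has more than 1 library, so that segments share fewer than 2 replicate numbers. The share of FPKM in A over that in B and the count of members higher in B2 kept their direction under every alternative run.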
